A study of Mus musculus with 9 samples.

Results

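Slc7a11, Gclm, Gclc, Gss and Gsr are 5 genes of cystine import and of glutathione synthesis and regeneration, and not the full set. They were taken by symbol from the 24318 genes of the deposited expression tables. All 5 were found, and all 5 passed the filter of a mean of 1 FPKM, with a lowest single value of 6.01 FPKM. FPKM is fragments counted per kilobase of transcript and adjusted for library size, so levels can be set beside each other between genes of different length.

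The values are polyA RNA-seq of cultured cells in 3 groups of 3 libraries. SE-BDEV received brain-derived extracellular vesicles labelled SE, for status epilepticus (prolonged seizure activity), and its library names carry Pilo. CON-BDEV received brain-derived vesicles named as control, with Saline in the library names, and Vehicle was treated with vehicle. The dose, the time of exposure and the animals behind each vesicle preparation are not given in the sources used here. The series is described as BV2, a mouse microglial cell line, but all 9 libraries are labelled N2a, a mouse neuroblastoma line. Of 15 microglia and macrophage markers, 13 averaged at least 1 FPKM, with summed levels of 2700 to 2854 FPKM in SE-BDEV, 2643 to 2753 in CON-BDEV and 2609 to 2704 in Vehicle. Cx3cr1 and P2ry12 of that list did not reach 1 FPKM. Of 15 neuroblastoma and neuron markers, 3 did (Gata3, Elavl4 and Ina), while Th, Dbh, Mycn, Hand2, Chga and Stmn2 were among those at 0 in all 9 libraries. The summed level of that list was 17.5 to 18.0 FPKM in SE-BDEV, 14.2 to 19.8 in CON-BDEV and 16.4 to 17.7 in Vehicle. Estimated depth ran from 29163874 fragments in CON-BDEV 2 to 33768600 in Vehicle 2. The labels do not say whether replicates are separate cultures, so the spread behind each p-value is that between libraries and may be technical only.

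Glutathione is a tripeptide of glutamate, cysteine and glycine and the main small thiol with which cells reduce peroxides. Cysteine usually limits its synthesis, and many cells obtain it by importing cystine, the oxidised pair, through xCT (Slc7a11) in exchange for glutamate. Glutamate-cysteine ligase, a catalytic subunit (Gclc) with a modifier subunit (Gclm), makes the first bond, glutathione synthetase (Gss) adds glycine, and glutathione reductase (Gsr) returns the oxidised form to the reduced one with NADPH. NRF2, which binds antioxidant response elements with small MAF partners, and ATF4, which binds CEBP-ATF response elements, are known activators of genes of this pathway.

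The import gene, both ligase genes and the reductase gene were higher in each vesicle group than in Vehicle, and the synthetase gene stood apart from them with a difference of at most 1.13-fold. Slc7a11 and Gclm were over 4-fold higher with either vesicle preparation, and Gclc and Gsr were 1.59-fold to 1.67-fold higher. In limma's fit of log2(FPKM + 1), with Benjamini-Hochberg adjustment over all genes tested, 4 of the 5 genes passed an adjusted p of 0.05 in SE-BDEV against Vehicle, all higher, where 11.9% of 10535 genes passed, 6.76% as higher and 5.14% as lower. The same 4 passed in CON-BDEV against Vehicle, all higher, where 5.67% of 10535 genes passed, 3.81% as higher and 1.86% as lower. These comparisons share the 3 Vehicle libraries, so they are not independent of each other. The median log2 fold change of the 5 genes was 0.72 in SE-BDEV and 0.70 in CON-BDEV, against -0.0008 and 0.01 over all genes tested. In bulk RNA, a change in the make-up of the cells and a change in RNA per cell cannot be told apart.

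**Figure D1:**
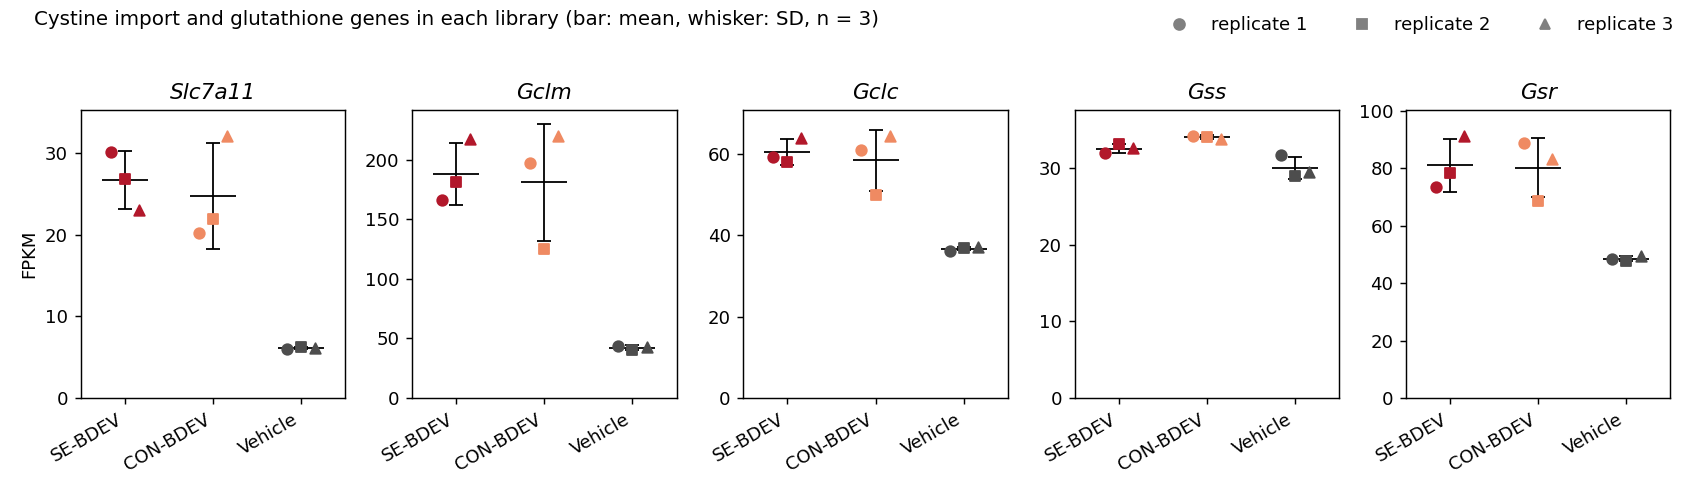
FPKM of the 5 genes (1 panel each, linear axis from 0) in each library of SE-BDEV, CON-BDEV and Vehicle, with point shapes for replicates, a bar for the mean and a whisker for the SD (n = 3). Slc7a11 and Gclm lie far above Vehicle in all 6 vesicle libraries, Gclc and Gsr lie above it by less, and Gss lies close to it.

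Slc7a11 (chr3:50168858-50247535, mm9) encodes xCT, the transport subunit of the cystine-glutamate exchanger. The 250 bases before its start (RefSeq, GRCm38.p6, chr3:50443614-50443863, minus strand) are shown because they hold a pair of matches to the CEBP-ATF letters. Capitals mark the matches, TGATGCAAA at 66 to 58 bases before the start on the gene's strand and TTTGCATCA at 48 to 40 bases on the opposite strand.
Slc7a11: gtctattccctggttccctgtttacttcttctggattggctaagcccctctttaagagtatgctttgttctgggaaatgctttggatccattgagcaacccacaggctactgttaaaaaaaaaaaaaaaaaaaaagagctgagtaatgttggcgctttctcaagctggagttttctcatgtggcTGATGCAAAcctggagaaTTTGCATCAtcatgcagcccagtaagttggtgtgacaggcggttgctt
Motifs were searched on both strands as exact letters: TGATGNAAN for the CEBP-ATF response element, TGACNNNGC for the antioxidant response element core and TGACTCA for AP-1, whose letters can overlap the antioxidant core. Among 32851 mouse promoter windows of this length, 3.44% hold the first, 10.2% the second and 4.46% the third. A match is a description of letters and not evidence of binding.

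Slc7a11 had 30.2, 26.8 and 23.1 FPKM in SE-BDEV 1 to 3, 20.2, 22.0 and 32.2 in CON-BDEV 1 to 3, and 6.01, 6.24 and 6.15 in Vehicle 1 to 3. Every vesicle library lay above every Vehicle library, and the SE-BDEV and CON-BDEV values overlapped. The means were 26.7 ± 3.56 FPKM in SE-BDEV, 24.8 ± 6.46 in CON-BDEV and 6.13 ± 0.114 in Vehicle (SD, n = 3 each), or 4.35-fold and 4.04-fold the Vehicle mean. The log2 fold change was 1.95 ± 0.08 (SE) in SE-BDEV against Vehicle (limma adjusted p = 2.12e-06) and 1.82 ± 0.14 in CON-BDEV against Vehicle (limma adjusted p = 0.000909). Ordered from the highest log2 fold change of 10535 genes, it stood at rank 3 in SE-BDEV and rank 5 in CON-BDEV. Adding 1 FPKM compresses a gene this low in Vehicle: with 0.1 FPKM added, the values were 2.09 and 1.97.

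Gclm (chr3:121948475-121970133, mm9) encodes the modifier subunit of glutamate-cysteine ligase, which raises the affinity of the enzyme for glutamate and eases its feedback inhibition by glutathione. Its upstream window (RefSeq, GRCm38.p6, chr3:122245307-122245556, plus strand) is shown because it holds a match of the other kind. Capitals mark the antioxidant response element core, GCACCGTCA on the opposite strand at 134 to 126 bases before the start.
Gclm: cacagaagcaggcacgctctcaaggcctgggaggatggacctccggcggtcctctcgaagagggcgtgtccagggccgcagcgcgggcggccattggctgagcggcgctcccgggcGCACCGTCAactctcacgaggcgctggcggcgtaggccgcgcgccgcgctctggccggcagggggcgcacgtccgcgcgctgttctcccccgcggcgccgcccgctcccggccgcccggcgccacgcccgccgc
The Slc7a11 window holds no match to that core or to AP-1, the Gclm window none to the CEBP-ATF letters or AP-1, and the Gss window none to any of the 3 motifs. These absences concern these letters in these windows alone.

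Gclm had 165.8, 181.5 and 217.2 FPKM in SE-BDEV 1 to 3, 196.8, 125.3 and 220.0 in CON-BDEV 1 to 3, and 43.8, 39.9 and 42.8 in Vehicle 1 to 3. No vesicle library overlapped Vehicle, and CON-BDEV 2 was the lowest of the 6 by a wide gap. The means were 188 ± 26.4 FPKM in SE-BDEV, 181 ± 49.3 in CON-BDEV and 42.2 ± 2.02 in Vehicle (SD, n = 3 each), or 4.46-fold and 4.28-fold the Vehicle mean. The log2 fold change was 2.12 ± 0.08 (SE) in SE-BDEV against Vehicle (limma adjusted p = 2.12e-06), the second highest of 10535 genes. In CON-BDEV against Vehicle it was 2.03 ± 0.17 (limma adjusted p = 0.00105), the fourth highest.

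Gclc (chr9:77602342-77642296, mm9) encodes the catalytic subunit that joins glutamate to cysteine. It had 59.2, 58.0 and 64.0 FPKM in SE-BDEV 1 to 3, 60.9, 49.95 and 64.4 in CON-BDEV 1 to 3, and 36.3, 36.8 and 37.0 in Vehicle 1 to 3. The vesicle libraries all lay above Vehicle, again with CON-BDEV 2 lowest among them. The means were 60.4 ± 3.15 FPKM in SE-BDEV, 58.4 ± 7.56 in CON-BDEV and 36.7 ± 0.391 in Vehicle (SD, n = 3 each). The log2 fold change was 0.70 ± 0.04 (SE) in SE-BDEV against Vehicle (limma adjusted p = 1.71e-05) and 0.65 ± 0.08 in CON-BDEV against Vehicle (limma adjusted p = 0.00558).

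Gss (chr2:155388917-155418546, mm9) encodes glutathione synthetase, which adds glycine. It had 32.1, 33.1 and 32.7 FPKM in SE-BDEV 1 to 3, 34.3, 34.1 and 33.9 in CON-BDEV 1 to 3, and 31.7, 29.1 and 29.6 in Vehicle 1 to 3. The lowest vesicle library lay just above the highest Vehicle library, so the groups did not overlap, but the gap was small. All 5 genes were thus higher without overlap, as were 16.5% of all genes in SE-BDEV against Vehicle (32.8% without overlap in either direction) and 16.6% in CON-BDEV against Vehicle (29.3% in either direction). The means were 32.6 ± 0.542 FPKM in SE-BDEV, 34.1 ± 0.213 in CON-BDEV and 30.1 ± 1.42 in Vehicle (SD, n = 3 each). The log2 fold change did not pass in SE-BDEV against Vehicle (0.11, 95% interval 0.01 to 0.21, limma adjusted p = 0.133). It did not pass in CON-BDEV against Vehicle either (0.17, 95% interval 0.07 to 0.28, limma adjusted p = 0.0633), except in a fit over all 9 libraries (limma adjusted p = 0.0344).

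Gsr (chr8:34763710-34808634, mm9) encodes glutathione reductase. It had 73.6, 78.2 and 91.4 FPKM in SE-BDEV 1 to 3, 88.9, 68.8 and 83.2 in CON-BDEV 1 to 3, and 48.6, 47.7 and 49.5 in Vehicle 1 to 3. All vesicle libraries were above Vehicle, with SE-BDEV 3 highest and CON-BDEV 2 lowest. The means were 81.1 ± 9.23 FPKM in SE-BDEV, 80.3 ± 10.3 in CON-BDEV and 48.6 ± 0.912 in Vehicle (SD, n = 3 each). The log2 fold change was 0.72 ± 0.07 (SE) in SE-BDEV against Vehicle (limma adjusted p = 0.000315) and 0.70 ± 0.08 in CON-BDEV against Vehicle (limma adjusted p = 0.00426).

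The authors' deposited table gave a log2 fold change for Slc7a11 of 2.12 in SE-BDEV against Vehicle (q = 0.00196) and 2.01 in CON-BDEV against Vehicle (q = 0.00245). For Gclm the authors' deposited table gave 2.16 and 2.10, for Gclc 0.72 and 0.67, and for Gsr 0.74 and 0.72, all at these same q-values. For Gss the authors' deposited table gave 0.11 (q = 0.658) and 0.18 (q = 0.392).

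SE-BDEV and CON-BDEV were not told apart by any of the 5 genes. In limma's fit over all 9 libraries 0 of 5 genes passed, and 0% of 10532 genes did, with 509 genes at an unadjusted p under 0.05 and 1 gene passing when the spread was modelled without a trend. The log2 fold change of SE-BDEV against CON-BDEV was 0.12 for Slc7a11 (95% interval -0.19 to 0.44), 0.09 for Gclm (-0.28 to 0.46) and 0.05 for Gclc (-0.12 to 0.23). It was 0.02 for Gsr (-0.19 to 0.22) and -0.06 for Gss (-0.15 to 0.03). The intervals are widest for Slc7a11 and Gclm, the genes with the largest spread between CON-BDEV libraries. The limma adjusted p was 0.999 for each of the 5. Only for Gss did the libraries of the groups not overlap, lower in SE-BDEV, as was so in either direction for 7.94% of genes, 2.74% being higher.

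**Figure D2:**
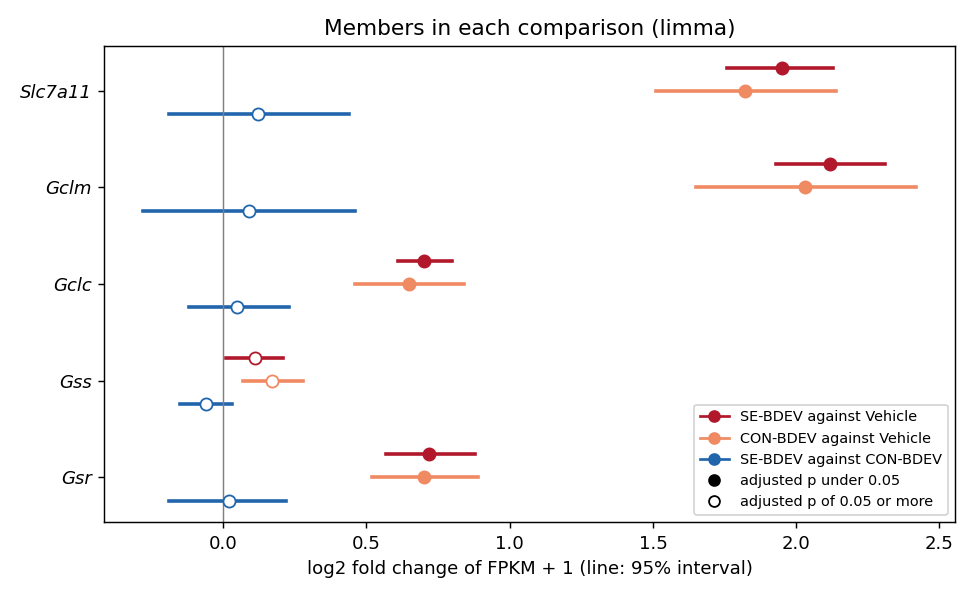
Log2 fold change of FPKM + 1 (limma, horizontal axis) with its 95% interval for each gene in SE-BDEV against Vehicle, CON-BDEV against Vehicle and SE-BDEV against CON-BDEV, with filled points for an adjusted p under 0.05. The vesicle effects on Slc7a11 and Gclm are near 2, those on Gclc and Gsr near 0.7, and all 5 intervals between SE-BDEV and CON-BDEV include 0.

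The order of the 5 genes by level differed between exposed and unexposed cells. In Vehicle, Gsr was highest and Gclm second, followed by Gclc, Gss and Slc7a11, and no neighbouring pair in that order overlapped between libraries. In SE-BDEV and CON-BDEV, Gclm was highest and Gsr second, followed by Gclc, Gss and Slc7a11. All 3 SE-BDEV libraries and all 3 CON-BDEV libraries held this order, without overlap between neighbours in it. Among the 5 genes, the modifier and not the reductase was thus highest in every vesicle library. The order does not cover other genes of the pathway: Slc3a2, the partner chain of xCT, had 142 FPKM in CON-BDEV 2, above Gclm at 125.3.

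The transcripts of the ligase subunits did not keep their proportion, and that of the proteins was not measured. The ratio of Gclm to Gclc FPKM was 2.80, 3.13 and 3.39 in SE-BDEV 1 to 3, 3.23, 2.51 and 3.41 in CON-BDEV 1 to 3, and 1.21, 1.09 and 1.16 in Vehicle 1 to 3. The ratio was over 2.5 in all vesicle libraries, and no Vehicle library had more than 1.21. It is a ratio of FPKM and not of counted molecules. The means were 3.11 ± 0.299 in SE-BDEV, 3.05 ± 0.478 in CON-BDEV and 1.15 ± 0.0618 in Vehicle (SD, n = 3 each), given as a description without a test. An exact permutation test of 3 libraries against 3 cannot go below p = 0.1. Slc3a2, the heavy chain that carries xCT to the membrane, was far more abundant than Slc7a11 throughout. The ratio of Slc7a11 to Slc3a2 FPKM was 0.196 ± 0.00312 in SE-BDEV, 0.178 ± 0.0356 in CON-BDEV and 0.0555 ± 0.00363 in Vehicle (SD, n = 3 each). The ratio of Gss to Gclc moved the other way, with 0.541 ± 0.0300 in SE-BDEV, 0.590 ± 0.0828 in CON-BDEV and 0.822 ± 0.0469 in Vehicle (SD, n = 3 each).

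**Figure D3:**
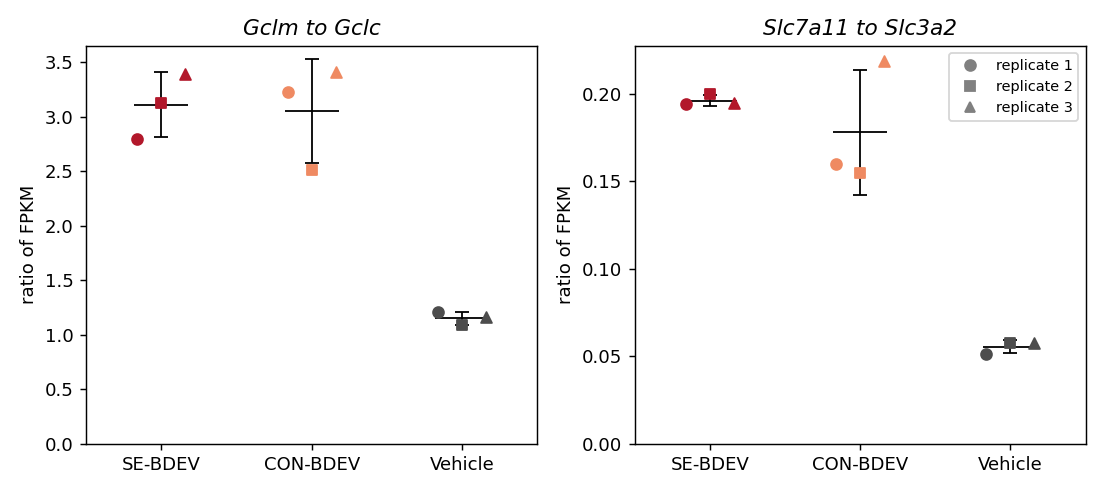
Ratio of FPKM of Gclm to Gclc (left) and of Slc7a11 to Slc3a2 (right) in each library of SE-BDEV, CON-BDEV and Vehicle, on linear axes from 0, with the mean as a bar and the SD as a whisker (n = 3). Gclm to Gclc lies at 2.51 to 3.41 in the 6 vesicle libraries and at 1.09 to 1.21 in Vehicle.

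Slc7a11, Gclm, Gclc and Gsr varied more between vesicle libraries than between Vehicle libraries. The coefficient of variation of Slc7a11 was 13.3% in SE-BDEV, 26.1% in CON-BDEV and 1.86% in Vehicle, and that of Gclm was 14.0%, 27.3% and 4.78%. In the same order it was 5.22%, 12.9% and 1.07% for Gclc and 11.4%, 12.9% and 1.88% for Gsr. Of 6814 genes averaging 10 FPKM or more, 90% were under 8.79% in SE-BDEV, 10.7% in CON-BDEV and 6.47% in Vehicle. Gss differed from the others, with 1.66% in SE-BDEV, 0.625% in CON-BDEV and 4.71% in Vehicle. The estimated number of fragments per library was at least 1774 for Slc7a11 and 7477 for Gclm, from an estimated depth.

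Within the vesicle groups the genes split by library. Slc7a11 was at 4.92, 4.37 and 3.76 times the Vehicle mean in SE-BDEV 1 to 3 and at 3.29, 3.58 and 5.24 times in CON-BDEV 1 to 3. Gclm was at 3.93, 4.30 and 5.15 times in SE-BDEV 1 to 3 and at 4.66, 2.97 and 5.22 times in CON-BDEV 1 to 3. SE-BDEV 3 was thus the lowest library of its group for Slc7a11 and the highest for Gclm, and CON-BDEV 1 was the lowest of its group for Slc7a11 while CON-BDEV 2 was the lowest for Gclm. Gclc and Gsr were highest in SE-BDEV 3 and lowest in CON-BDEV 2 within their groups.

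Over the 6 vesicle libraries, a choice made after the values were seen, Pearson's r of log2(FPKM + 1) was 0.98 between Gclm and Gclc, 0.89 between Gclm and Gsr and 0.83 between Gclc and Gsr. It was 0.24 between Slc7a11 and Gclm, 0.34 between Slc7a11 and Gclc and -0.21 between Slc7a11 and Gsr. Over all 9 libraries the same pairs lay between 0.91 and 0.99, values that the distance between vesicle and Vehicle libraries sets in large part. Each r is a description over few libraries of 1 experiment.

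Slc7a11 varied with other genes of amino acid transport and regulation, which were picked from the lists after their values were seen. Over the 6 vesicle libraries its r was 0.98 with Bach1, a repressor that competes with NRF2 for its sites, and 0.96 with Slc6a9, a glycine transporter, against 0.27 and 0.03 for Gclm with the same genes. Ddit3 and Trib3, stress genes that ATF4 is known to activate, were at 0.865 and 0.869 times the Vehicle mean in SE-BDEV 3 and at 0.810 and 0.894 times in CON-BDEV 1, each the library with the lowest Slc7a11 within its own group. In the other 4 vesicle libraries they were at 1.88 to 2.87 times. Chac1, an enzyme that breaks glutathione down and another known ATF4 target, was at 1.04 times in SE-BDEV 3 and 0.752 times in CON-BDEV 1, against 2.34 to 3.07 times in the other 4. Slc7a11 was still at 3.76 and 3.29 times the Vehicle mean in these libraries, so it was raised where the other 3 genes were not. Across groups the order did not hold: CON-BDEV 2 had the second lowest Slc7a11 of the 6, 3.58 times the Vehicle mean and below SE-BDEV 3, with Ddit3 at 2.69 and Trib3 at 2.83 times. Over the 6 vesicle libraries the r with Slc7a11 was 0.63 for Ddit3, 0.63 for Trib3, 0.67 for Chac1 and 0.61 for Atf4, below those of Bach1 and Slc6a9. What part these genes play in the spread of Slc7a11 was not tested.

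**Figure D4:**
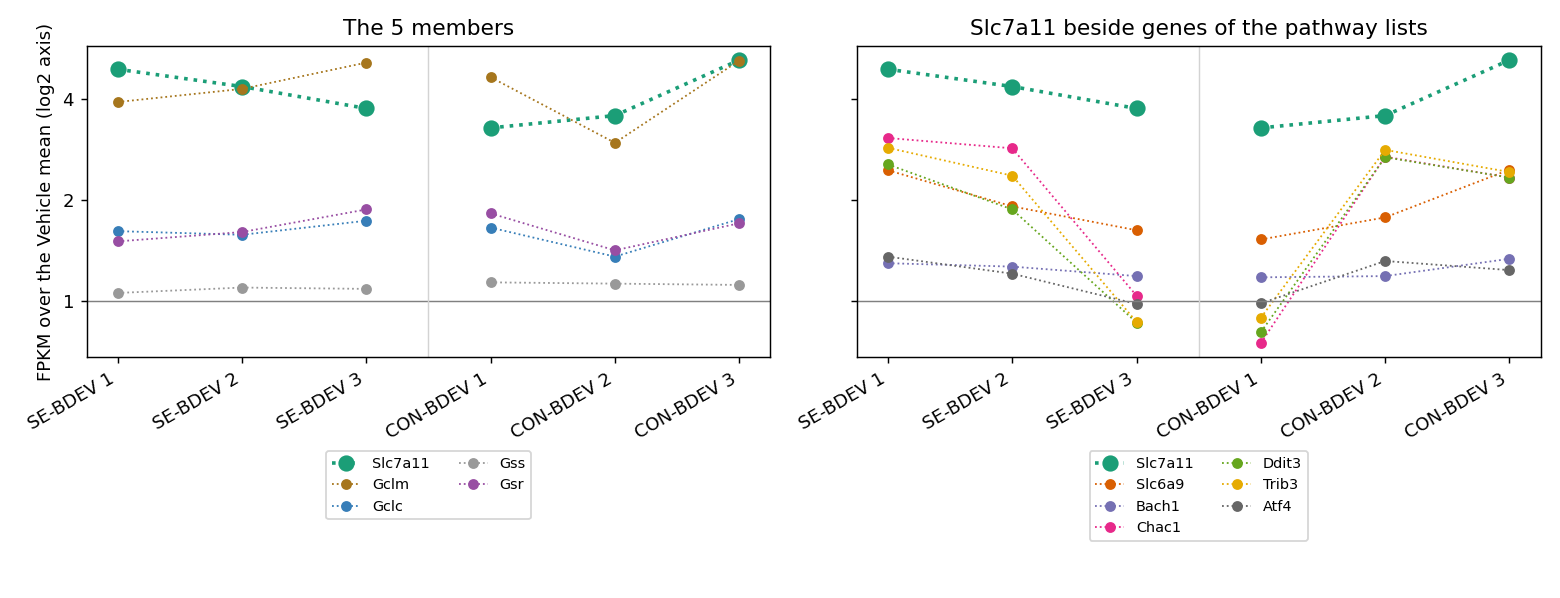
FPKM over the Vehicle mean (log2 axis) in each SE-BDEV and CON-BDEV library for the 5 genes (left) and for Slc7a11 beside Slc6a9, Bach1, Chac1, Ddit3, Trib3 and Atf4 (right), with the line at 1 marking the Vehicle mean and dotted lines joining the points of 1 gene in a group. Ddit3, Trib3, Chac1 and Atf4 sit at 0.752 to 1.04 in SE-BDEV 3 and CON-BDEV 1, where Slc7a11 is lowest in its group but still over 3 times Vehicle.

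Genes with the most similar profile over all 9 libraries were named by Pearson's r. For Slc7a11 these were Agt, which encodes angiotensinogen (0.995), Mt2, a metallothionein (0.988), and Sqstm1, an autophagy receptor that binds KEAP1 (0.985). For Gclm they were Cat, which encodes catalase, Slc11a1, a metal transporter of phagocyte vesicles, and Slc48a1, a heme transporter, with r of 0.998, 0.998 and 0.997. For Gclc they were Lipa, a lysosomal lipase, Cat and Slc48a1, with r of 0.998, 0.998 and 0.996. For Gsr they were Srxn1, which encodes sulfiredoxin, Txnrd1, which encodes thioredoxin reductase, and Slc48a1, with r of 0.996, 0.995 and 0.992. Cat averaged 209 FPKM in SE-BDEV, 200 in CON-BDEV and 90.4 in Vehicle, and Slc48a1 213, 209 and 77.3. The profile of Gss was less closely matched, with r of 0.954 for Slc25a33 and 0.945 for Acot7.

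Genes around the pathway changed by less than Slc7a11 and Gclm. The counts and medians of the 5 lists below were not tested as sets. Of all 10535 genes, 6.76% passed as higher and 5.14% as lower in SE-BDEV against Vehicle, with a median log2 fold change of -0.0008. In CON-BDEV against Vehicle 3.81% passed as higher and 1.86% as lower, with a median of 0.01. Among 17 genes of cystine and cysteine supply, 10 were kept, and in SE-BDEV against Vehicle 1 passed higher and 2 lower, while in CON-BDEV against Vehicle 1 passed higher and 1 lower. Mfsd12, which takes cysteine into melanosomes and lysosomes, had a log2 fold change of -0.38 in SE-BDEV (limma adjusted p = 0.00377) and -0.38 in CON-BDEV (limma adjusted p = 0.0200). In SE-BDEV, Ctns, the lysosomal cystine exporter, passed at 0.28 (limma adjusted p = 0.0456) and Ahcy, an enzyme of the methionine cycle, at -0.13 (limma adjusted p = 0.0442). Slc3a2 passed in CON-BDEV at 0.31 (limma adjusted p = 0.0248) and had 0.29 in SE-BDEV (limma adjusted p = 0.0577). The median of the list was 0.04 in SE-BDEV and 0.03 in CON-BDEV.

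Of 14 genes of glutamate and glycine supply, all kept, 3 passed in SE-BDEV against Vehicle and 2 in CON-BDEV against Vehicle, all higher. Over all genes, 6.76% passed as higher in SE-BDEV and 3.81% in CON-BDEV. Slc6a9 had 28.8, 22.4 and 19.0 FPKM in SE-BDEV 1 to 3, 17.9, 20.8 and 28.9 in CON-BDEV 1 to 3, and 11.7, 12 and 11.4 in Vehicle 1 to 3, without overlap between vesicle and Vehicle libraries. Its log2 fold change was 0.92 in SE-BDEV (limma adjusted p = 0.00144) and 0.86 in CON-BDEV (limma adjusted p = 0.0117). Slc38a2, a transporter of small neutral amino acids, followed with 0.33 in SE-BDEV (limma adjusted p = 0.0106) and 0.28 in CON-BDEV (limma adjusted p = 0.0138). Slc38a1, a related transporter, passed in SE-BDEV at 0.25 (limma adjusted p = 0.0160). The median of the list was -0.0020 in SE-BDEV and 0.01 in CON-BDEV.

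Of 19 genes of glutathione breakdown and transport, 13 were kept, and 3 passed in SE-BDEV against Vehicle and 1 in CON-BDEV against Vehicle, all higher. Shares of all genes passing as higher were 6.76% in SE-BDEV and 3.81% in CON-BDEV. Abcc1, an exporter of glutathione and its conjugates, had a log2 fold change of 0.57 in SE-BDEV (limma adjusted p = 0.000108) and 0.54 in CON-BDEV (limma adjusted p = 0.00653). Abcc4 and Abcc5, exporters of organic anions, passed in SE-BDEV at 0.36 (limma adjusted p = 0.00134) and 0.34 (limma adjusted p = 0.00812). Chac1 did not pass, at 0.81 in SE-BDEV (limma adjusted p = 0.0883) and 0.58 in CON-BDEV (limma adjusted p = 0.273). Without SE-BDEV 3 it had 1.19 (limma adjusted p = 0.000736), and without CON-BDEV 1 it had 0.99 (limma adjusted p = 0.00556). Chac1 was lowest of each group in these libraries, so the rise follows from that choice. Its lowest value over all alternative settings was 0.60 in SE-BDEV and 0.34 in CON-BDEV. The median of the list was 0.01 in SE-BDEV and 0.07 in CON-BDEV.

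All 10 glutaredoxins and glutathione-dependent enzymes were kept, and 2 passed in SE-BDEV against Vehicle and 3 in CON-BDEV against Vehicle, all higher. Among all genes, 6.76% passed as higher in SE-BDEV and 3.81% in CON-BDEV. Esd, which releases glutathione from S-formylglutathione, had 202, 211 and 226 FPKM in SE-BDEV 1 to 3, 212, 194 and 231 in CON-BDEV 1 to 3, and 105, 106 and 106 in Vehicle 1 to 3. It was about doubled in every vesicle library, with a log2 fold change of 1.01 in SE-BDEV (limma adjusted p = 2.12e-06) and 1.00 in CON-BDEV (limma adjusted p = 0.000186). Glrx, a cytosolic glutaredoxin, had 0.33 in SE-BDEV (limma adjusted p = 0.00663) and 0.40 in CON-BDEV (limma adjusted p = 0.0217), and Glrx5, a mitochondrial one, passed in CON-BDEV at 0.16 (limma adjusted p = 0.0497). The median of the list was 0.07 in SE-BDEV and 0.08 in CON-BDEV.

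Of 13 regulators of these genes, all kept, 3 passed in each comparison with Vehicle, all higher. For all genes the share passing as higher was 6.76% in SE-BDEV and 3.81% in CON-BDEV. Sqstm1 had a log2 fold change of 0.58 in SE-BDEV (limma adjusted p = 0.000104) and 0.59 in CON-BDEV (limma adjusted p = 0.00426). Bach1 had 0.30 in SE-BDEV (limma adjusted p = 0.00445) and 0.28 in CON-BDEV (limma adjusted p = 0.0295). Mafg, a small MAF partner of NRF2, had 0.28 in SE-BDEV (limma adjusted p = 0.00153) and 0.26 in CON-BDEV (limma adjusted p = 0.0159). The transcript of NRF2 itself did not pass, with Nfe2l2 at -0.12 in SE-BDEV (limma adjusted p = 0.24) and -0.10 in CON-BDEV (limma adjusted p = 0.176). Keap1, its inhibitor, had -0.04 in SE-BDEV (limma adjusted p = 0.632) and 0.03 in CON-BDEV (limma adjusted p = 0.843), a sign that turned without CON-BDEV 1 or Vehicle 3. Nfe2l2 passed as lower at -0.19 (limma adjusted p = 0.0168) without SE-BDEV 1, the library of that group where it was highest. These are transcript levels, and the activity of the NRF2 protein was not measured. The median of the list was 0.20 in SE-BDEV and 0.22 in CON-BDEV.

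Atf4, Ddit3 and Trib3 of the same list did not pass with all libraries, and were lowest within each vesicle group in SE-BDEV 3 and CON-BDEV 1. Trib3 had 47.0, 38.8 and 14.2 FPKM in SE-BDEV 1 to 3, 14.6, 46.2 and 39.7 in CON-BDEV 1 to 3, and 18.3, 15.2 and 15.6 in Vehicle 1 to 3. SE-BDEV 3 and CON-BDEV 1 lay below the lowest Vehicle library and the other 4 vesicle libraries far above the highest. Without SE-BDEV 3 its log2 fold change against Vehicle was 1.34 (limma adjusted p = 4.74e-05), compared with 0.83 (limma adjusted p = 0.152) with it. Without CON-BDEV 1 it was 1.34 (limma adjusted p = 0.000326), compared with 0.84 (limma adjusted p = 0.174) with it. Ddit3 and Atf4 likewise passed without these libraries, at 1.12 and 0.36 in SE-BDEV (limma adjusted p = 0.00162 and 0.00399) and at 1.31 and 0.36 in CON-BDEV (limma adjusted p = 0.000959 and 0.00452). These genes were lowest in the libraries left out, so the rise follows from that choice and the passing p-values are no evidence of an effect. Over all alternative settings the lowest log2 fold changes of Trib3, Ddit3 and Atf4 were 0.51, 0.35 and 0.13 in SE-BDEV against Vehicle. In CON-BDEV against Vehicle they were 0.54, 0.47 and 0.15.

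Many of the calls on these lists were lost when a single library was left out, unlike those on the 4 genes above. Calls over all genes moved too. In CON-BDEV against Vehicle they went from 597 to 110, 84 and 121 without Vehicle 1, 2 and 3. Without CON-BDEV 1, 2 and 3 they were 1067, 905 and 133. In SE-BDEV against Vehicle they went from 1253 to 501, 601 and 678 without Vehicle 1, 2 and 3. Without SE-BDEV 1, 2 and 3 they were 889, 877 and 1311. In SE-BDEV against Vehicle, 10 of 14 list calls held when any 1 of the 6 libraries was left out. Slc38a1 and Slc38a2 did not pass without Vehicle 1 (limma adjusted p = 0.0747 and 0.0514). Ctns failed without any of 5 libraries and Ahcy without any of the 6, with limma adjusted p up to 0.16 without Vehicle 1 and 0.132 without Vehicle 3. In CON-BDEV against Vehicle, 3 of 11 list calls held throughout, those of Abcc1, Esd and Sqstm1. Slc6a9 failed without each Vehicle library in turn (limma adjusted p up to 0.0589), Mfsd12 without CON-BDEV 3, Vehicle 1 or Vehicle 2 (up to 0.0881), and Slc38a2 without CON-BDEV 3, Vehicle 1 or Vehicle 3 (up to 0.0760). Slc3a2, Glrx, Bach1 and Mafg failed without CON-BDEV 3 or any Vehicle library (limma adjusted p up to 0.107, 0.0985, 0.128 and 0.0794), and Glrx5 without any of the 6 (up to 0.173).

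Between SE-BDEV and CON-BDEV no gene of the 5 lists passed. The most abundant gene of each list had a log2 fold change of -0.03 for Slc3a2 (95% interval -0.22 to 0.17), -0.06 for Phgdh, the first enzyme of serine synthesis (-0.17 to 0.06), and 0.0008 for Slc25a39, a mitochondrial glutathione importer (-0.10 to 0.10). It was 0.0042 for Esd (-0.13 to 0.14) and 0.0028 for Atf4 (-0.26 to 0.26).

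**Figure D5:**
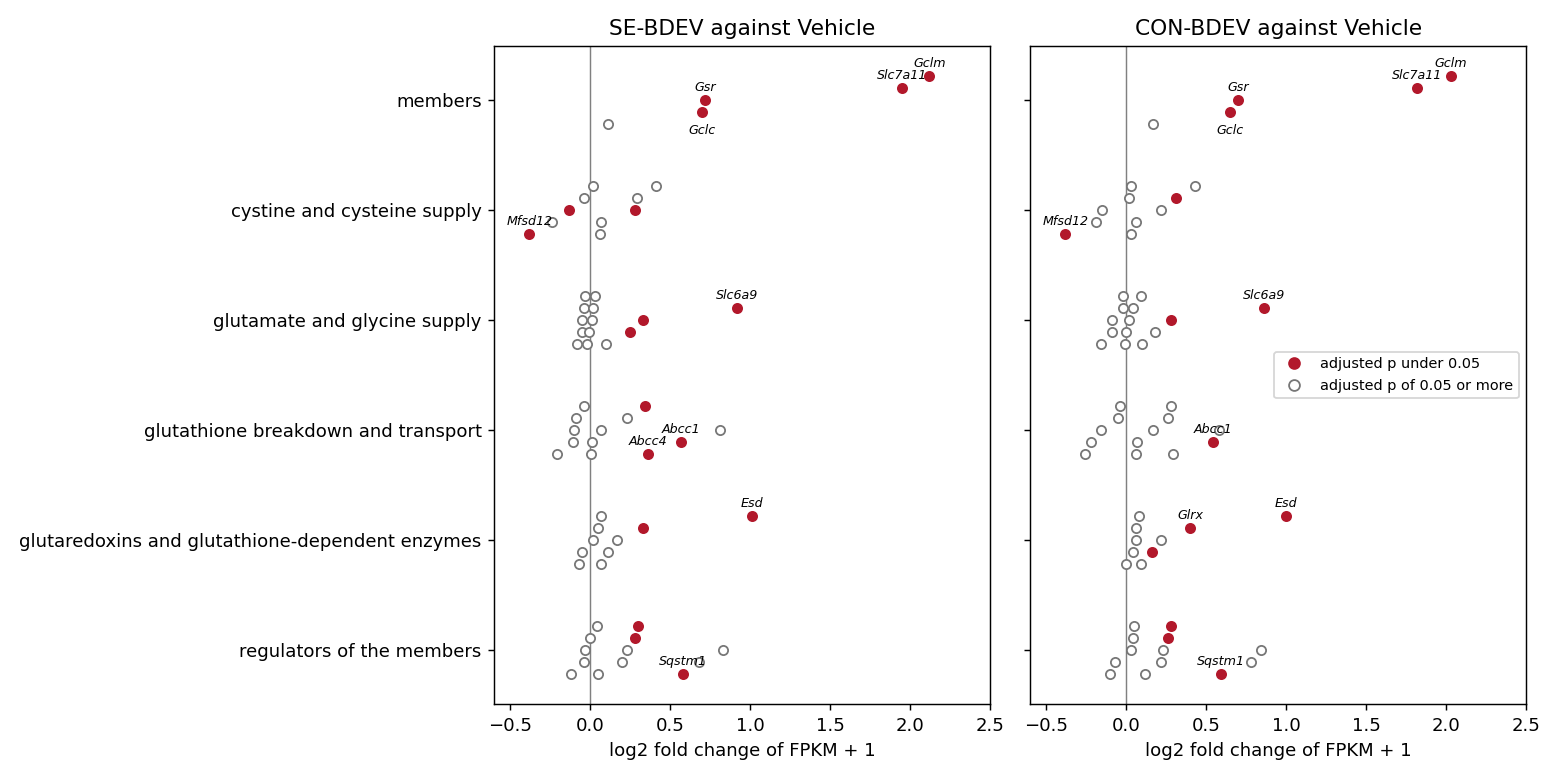
Log2 fold change of FPKM + 1 against Vehicle (horizontal axis) for each kept gene of the 5 genes under study and the 5 pathway lists (rows), in SE-BDEV (left) and CON-BDEV (right), with filled points for an adjusted p under 0.05 and vertical offsets only to separate points. Gclm and Slc7a11 lie near 2, beyond every list gene, and the called list genes lie between -0.38 and 1.01.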

How the data were processed

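PolyA RNA was measured in 9 libraries, grouped by title. TopHat2, Cuffdiff and the build mm9 are named, per the submitters' processing notes, and versions, annotation and strand setting are not given in the sources used here. The 2 deposited FPKM tables each hold one vesicle group with the same Vehicle libraries. The deposited Cuffdiff tables give, per the file headers, the authors' mean FPKM, log2 fold change, test score, p-value and q-value. FPKM values are not counts, so limma 3.58.1 (R 4.3.3) was fitted to log2(FPKM + 1) over genes averaging 1 FPKM or more, with an eBayes trend, 2-sided, at an adjusted p of 0.05. Each vesicle group was fitted with Vehicle in its own table, and SE-BDEV with CON-BDEV over all 9 libraries after SE-BDEV values were divided by 1.00044, the ratio of the shared Vehicle values. Genes with a failed estimate (2) were left out. The fit was tested on simulated data in which each gene had the same spread in every group. That does not check the unequal spread between vesicle and Vehicle libraries seen here.

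Depth was estimated from values under 0.05 FPKM in 76 genes with 1 transcript and at least 4000 nt, so fragment numbers are approximate. Starts were raised by 1 to count from 1. Promoter windows were in the RefSeq table for 3 of the 5 genes (Slc7a11, Gclm and Gss), and Gclc and Gsr are named only. The genes under study, the lists and the naming rule were chosen with earlier results of these data known. The rule names up to 3 called genes of each list by size of change, or the gene with the highest mean where none passed, and 3 genes most like each of the 5, of which 1 is not reported here. Alternatives were the pseudocount, the filter, the scaling, the spread model, blocks and leaving out each library.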

Additional observations from a re-analysis of the deposited data

How the results depend on the processing

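In both comparisons with Vehicle, Slc7a11, Gclm, Gclc and Gsr passed in the same direction under all 15 alternatives. Their log2 fold changes ran from 1.86 to 2.09, 2.02 to 2.21, 0.66 to 0.73 and 0.63 to 0.79 in SE-BDEV, and from 1.63 to 1.97, 1.87 to 2.28, 0.58 to 0.76 and 0.63 to 0.81 in CON-BDEV. The highest limma adjusted p was 0.0479, for Gclc in CON-BDEV with no filter. Gss passed only in CON-BDEV against Vehicle in the 9-library fit.

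The number of genes called over the whole table moved more. In SE-BDEV against Vehicle it was 1253, and 726 with no filter, 830 in the 9-library fit and 501 to 1311 with single libraries left out. In CON-BDEV against Vehicle it was 597, and 112 with no filter, 364 with a replicate block, 275 with the library code number as a block and 84 to 1067 with single libraries left out. Libraries with the same replicate number had correlations of -0.26 to 0.19 between groups, in their deviations from group means. Over 3 libraries a group these cannot settle whether replicate numbers pair the libraries. With the replicate block the same number of the 5 genes passed (4, 4 and 0). Of the named list genes, the block ended the calls of Slc3a2, Bach1 and Glrx5 in CON-BDEV against Vehicle (limma adjusted p = 0.0571, 0.0559 and 0.098) and of Ahcy and Ctns in SE-BDEV against Vehicle (0.0765 and 0.0609), and Chac1 passed in SE-BDEV against Vehicle (0.0399). Between SE-BDEV and CON-BDEV the number of genes called was 0, with 1 when no trend was modelled and 0 to 1 with single libraries left out. Under quantile normalization the share of calls that were higher in CON-BDEV was 54.7%, against 67.2%.

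With single libraries left out, SE-BDEV against CON-BDEV reached 0.32 for Slc7a11, 0.25 for Gclm, 0.13 for Gclc and 0.09 for Gsr, and its sign turned without CON-BDEV 1 for Slc7a11 (-0.0037), without CON-BDEV 2 for Gclm (-0.15), Gclc (-0.05) and Gsr (-0.09), and without SE-BDEV 3 for Gclm (-0.02) and Gsr (-0.07). Keap1 in CON-BDEV against Vehicle turned to -0.03 without CON-BDEV 1 and -0.0003 without Vehicle 3, with a highest value of 0.06 without CON-BDEV 2. The cause was not tested. The files hold no counts, so a difference the size of that in Gss is limited by 3 libraries a group and by an estimated depth.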
